A study of Mus musculus with 12 samples.

Results

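Spermatocytes sorted from the testes of WT mice were compared with WT spermatogonial stem cells (SSCs) kept in culture, by RNA-seq of 2 libraries each. These 4 libraries are the WT spermatocyte and WT SSC libraries by their labels, of 12 in a series that also holds c-KIT+ pre-meiotic cells and all 3 cell types from Zmym3 knockout (KO) mice. All mice were CBA/C57 males. The SSC libraries (SSC 1 and SSC 2) are labelled as 2 months old, and the cells were grown on laminin-coated dishes with no further treatment; the methods give pups or adults as the source of the cultures. The spermatocyte libraries are labelled as from mice of 5 and 7 months, 1 library per age, with no treatment and no culture, while the supplementary methods give 6 months for testes taken for cell isolation. Spermatocytes were sorted as tetraploid cells of large size, and staining for SYCP3 and γH2AX put most, but not all, of them at pachytene. The 2 sides of the comparison therefore differ in cell source (sorted from testis against cultured), in age and in stage, and these cannot be told apart here. Nothing states that the libraries of a group came from separate cultures, or how many mice were pooled, so every p-value measures only the spread between 2 libraries, which may be technical.

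SSCs are the self-renewing cells at the base of the seminiferous tubule, and in culture they depend on the growth factor GDNF, which signals through the receptors GFRA1 and RET. Their progeny enter meiosis, and in the long pachytene stage of the first meiotic prophase homologous chromosomes are held together by the synaptonemal complex while crossing over is completed. At this stage the largely unpaired X and Y chromosomes are packed into the sex body and transcribed little, a process called meiotic sex chromosome inactivation, and many genes needed only later, in spermatids, are already transcribed.

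The libraries were of like depth. The confidence limits deposited with the 5-month spermatocyte library gave back a total of 12700000 fragments on genes, and the low values of SSC 1, SSC 2 and the 7-month library put them at 1.09, 1.22 and 0.94 times that depth. SSCs had more genes at 1 FPKM or more (fragments per kilobase of transcript, scaled to the mapped fragments of the library) than spermatocytes, 11388 and 11313 against 9076 and 9198. In SSC 1 small RNA genes took 8.92% of the summed FPKM, most of it from Mir3064 at 26720 FPKM, against 0.172% to 0.364% in the other 3 libraries.

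Of 12567 genes at 1 FPKM or more in at least 2 of the 4 libraries, 3101 (24.7%) were higher and 7116 (56.6%) were lower in spermatocytes at an adjusted p under 0.01 (limma on log2 of FPKM + 1), so 81.3% of all genes tested were called. A further condition of at least 4-fold left 1521 higher (12.1%) and 3350 lower (26.7%). These shares are the background for the counts of every gene list below, and a gene that passed the filter only through the cell type where it is high had to differ. The 1521 genes held 2.28% and 2.53% of the summed FPKM of the SSC libraries and 41.9% and 42.2% of that of the spermatocyte libraries. The 3350 genes went the other way, from 33.9% and 37% in SSCs to 2.82% and 3% in spermatocytes. The median log2 fold change over all genes was -0.98, and it moved to -0.31 with quantile normalization and to -0.50 with median-ratio scaling, so a change is best read against that median. With quantile normalization the split became 4215 higher and 5638 lower, or 42.8% of the calls higher in place of 30.4%, and 2100 genes were at least 4-fold lower. Without SSC 1 the counts were 1645 higher and 4795 lower, and without SSC 2 they were 1628 and 4888. No called gene named below changed direction with any of these scalings, but most were picked by the size of their fold. Over all 10217 called genes, up to 528 changed sign under a single scaling, as did up to 4 of the called recombination genes. Since the samples are bulk RNA, fewer cells of a type and less RNA per cell cannot be told apart.

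Markers of both cell types followed the labels. Ldhc, the lactate dehydrogenase of germ cells, was at 2.01 and 2.56 FPKM in SSC 1 and SSC 2 and at 2668 and 2510 FPKM in the 5- and 7-month spermatocyte libraries, where it was the most abundant gene. Its mean was 1132-fold higher (log2 fold change 9.63, SE 0.13, adjusted p = 8.62e-06). Sycp3, which encodes an axis protein of the synaptonemal complex, was already at 43.0 and 44.1 FPKM in SSCs and at 332 and 215 FPKM in spermatocytes. That 6.28-fold difference (log2 fold change 2.59, SE 0.23, adjusted p = 0.000314) was far smaller than that of Ldhc. Gfra1 went from 58.4 and 55.4 FPKM in SSCs to 0.328 and 0.577 FPKM in spermatocytes, the first of these resting on 24 fragments (log2 fold change -5.32, SE 0.13, adjusted p = 8.74e-06). For all 3 genes the libraries of the 2 cell types did not overlap. With 81.3% of all genes tested called, such a separation was not particular to these markers. Without SSC 1 or SSC 2 the log2 fold change of Sycp3 was 2.57 or 2.61, and its call did not hold.

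Zmym3, the gene knocked out in the study, encodes a zinc finger protein of the MYM type and sits at chrX:98599723-98616024 in the mm9 coordinates of the files. It was at 40.2 and 37.4 FPKM in WT SSCs and at 0.412 and 0.46 FPKM in WT spermatocytes, an 88.9-fold lower mean (log2 fold change -4.79, SE 0.10, adjusted p = 8.62e-06). The 5-month value rested on 32 fragments. Zmym3 mRNA was thus low in the WT spermatocytes themselves, beside 0.146 and 0.34 FPKM in the KO spermatocyte libraries.

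**Figure D1:**
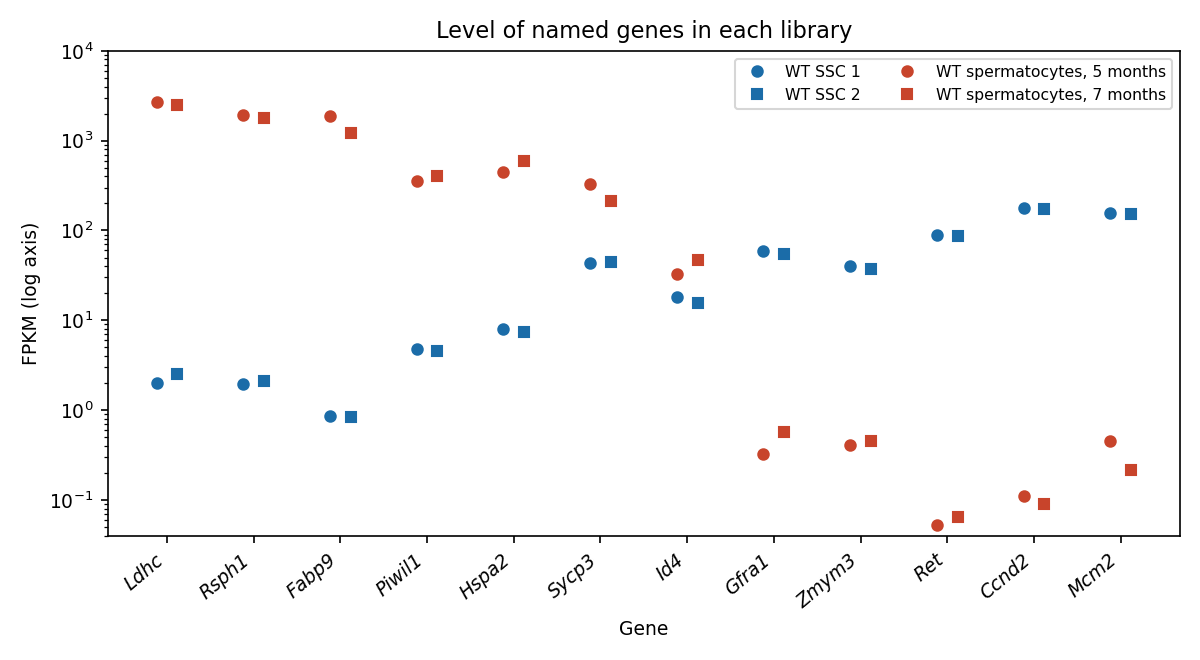
FPKM on a log axis of 12 genes in the 4 WT libraries, with SSCs in blue, spermatocytes in red, circles for SSC 1 and 5 months and squares for SSC 2 and 7 months. Ldhc sits at 2668 and 2510 FPKM in spermatocytes against 2.01 and 2.56 FPKM in SSCs, Zmym3 lies below 1 FPKM in both spermatocyte libraries, and libraries of the same cell type lie close together for each gene.

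The genes with the largest increases, leaving out unnamed gene models, included genes of sperm and spermatids that were near 0 in SSCs. Fabp9, a fatty acid binding protein of the acrosome, went from 0.865 and 0.837 FPKM to 1883 and 1222 FPKM. Rsph1, a radial spoke protein of the axoneme, went from 1.98 and 2.1 FPKM to 1934 and 1797 FPKM, a 915-fold higher mean. Crisp2, a sperm protein of the CRISP family, stood at 0.0301 and 0.0267 FPKM in SSCs and at 696 and 473 FPKM in spermatocytes. The other genes of the 10 largest increases were Ldhc, Spata4, Meig1, Pgam2, Fbp1, Cmtm2a and Adam5, each at 273 FPKM or more in both spermatocyte libraries and at 2.56 FPKM or less in both SSC libraries. Meig1, which acts in spermatid tail assembly, differed the most of these 10 between the spermatocyte libraries, with 741 FPKM at 5 months and 327 FPKM at 7 months. Cmtm2a was listed at 0 in both SSC libraries and at 412 and 279 FPKM in spermatocytes.

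Among the 10 named genes with the largest decreases, Ftl1, the ferritin light chain, was at 516 and 507 FPKM in SSCs and at 0.961 and 1.8 FPKM in spermatocytes, but it has near-identical copies that could share its fragments. Mcam, a cell adhesion protein, went from 306 and 298 FPKM to 0.385 and 0.618 FPKM. Ccnd2, the D-type cyclin of spermatogonia, went from 179 and 173 FPKM to 0.112 and 0.0909 FPKM, a 1733-fold lower mean. Ppp1ca, a catalytic subunit of protein phosphatase 1, kept a measurable level, from 481 and 471 FPKM to 2.4 and 2.37 FPKM. Nefm, Tubb5, Mcm2, Sdc4, Dmrt1 and the X-linked Mageb4 made up the rest of the 10, with log2 fold changes between -7.31 for Nefm and -6.60 for Mageb4. Tubb5 has close tubulin relatives and is uncertain for the same reason as Ftl1.

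Of the 33 genes of undifferentiated spermatogonia, 32 fell and 1 rose, with a median log2 fold change of -4.24 against -0.98 over all genes, and 24 fell by at least 4-fold (26.7% over all genes). Of these 33, 26 were below 1 FPKM in both spermatocyte libraries, as were 3349 of the 12567 genes tested. Such genes passed the filter only through SSCs and had to be lower in spermatocytes. Ret, the signalling receptor that GFRA1 joins, went from 89.8 and 86.3 FPKM to 0.0533 and 0.0648 FPKM. Zbtb16, which encodes the self-renewal factor PLZF, was at 83.7 and 78.7 FPKM in SSCs and at 0.136 and 0.129 FPKM in spermatocytes, 614-fold lower. Etv5 and Bcl6b, GDNF-responsive transcription factor genes, were 279-fold and 127-fold lower, and Tcl1 was listed at 0 in the 7-month library. The exception was Id4, the inhibitor of DNA binding used as a stem cell marker, which was at 18.4 and 15.6 FPKM in SSCs and at 32.5 and 47.3 FPKM in spermatocytes (log2 fold change 1.16, SE 0.21, adjusted p = 0.00477). Its call did not hold without SSC 1, SSC 2 or the 7-month library (adjusted p = 0.0441, 0.0663 and 0.0145). In c-KIT+ cells Id4 was at 3.04 and 2.85 FPKM, below both SSCs and spermatocytes.

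Among 14 genes of differentiating spermatogonia and meiotic entry, 8 fell and 4 rose, shares near those of all genes (56.6% and 24.7%), with a median log2 fold change of -2.48. All 8 that fell did so by at least 4-fold, and 2 rose by at least 4-fold (26.7% and 12.1% over all genes). The germ cell factors Dmrt1, Sohlh1 and Sohlh2 were 291-fold, 190-fold and 39.5-fold lower in spermatocytes, and Crabp1, a retinoic acid binding protein, was 52.1-fold lower. Dmrtb1, a relative of Dmrt1 that acts at the step from mitosis to meiosis, went the opposite way, from 12.9 and 10.4 FPKM to 234 and 264 FPKM (21.3-fold, adjusted p = 1.47e-05). Meioc, listed under its older symbol Gm1564 and needed for an extended meiotic prophase, rose 8.01-fold, and Ccne2 rose from 4.15 and 4.09 FPKM to 21 and 11.7 FPKM. Stra8, the retinoic acid target that starts meiosis, was low in both cell types, at 2.1 and 1.54 FPKM and at 1.12 and 0.659 FPKM, and did not pass (adjusted p = 0.0239). It was at 627 and 608 FPKM in c-KIT+ cells, which were induced from the SSC cultures with retinoic acid. Without SSC 1 or SSC 2 the list held 2 members called higher, and Ccne2 no longer passed (adjusted p = 0.0481 and 0.0496).

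Of 14 synaptonemal complex, axis and cohesin genes, 7 rose, 2 fell and 5 did not pass (median log2 fold change 1.02), against 24.7% higher and 56.6% lower over all genes. Sycp2, the axis partner of SYCP3, was 12.1-fold higher, at 122 and 85.8 FPKM in spermatocytes. Hormad1, which marks unsynapsed axes, was 13.5-fold higher, Syce1 of the central element 4.79-fold, and Sycp1, the transverse filament, 2.57-fold, from 38.4 and 39.8 FPKM in SSCs. Sycp1, Sycp3, Syce1 and Syce2 were thus all at 38.4 FPKM or more in SSCs. Syce2 fell from 76.4 and 73.3 FPKM to 27.8 and 25.2 FPKM. Rad21l, a meiotic cohesin subunit of early prophase, was at 8.57 and 8.7 FPKM in SSCs and at 0.0283 and 0.0299 FPKM in spermatocytes, 297-fold lower. The meiotic cohesin gene Smc1b, at 38.4 and 45.9 FPKM in SSCs and 68.2 and 52.7 FPKM in spermatocytes, did not pass (adjusted p = 0.0454). The list had, without SSC 1 or SSC 2, 3 higher and 1 lower, and neither Sycp1 (adjusted p = 0.0352 and 0.0326) nor Syce2 (adjusted p = 0.0109 and 0.0101) passed.

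The 24 recombination genes split, with 9 higher and 13 lower, of which 6 and 6 by at least 4-fold. The share that fell was near that of all genes (56.6%, and 26.7% by at least 4-fold), and the median log2 fold change was -0.59. Among those that rose were Spo11, the nuclease-like protein that makes meiotic double-strand breaks, from 0.876 and 0.605 FPKM to 49.4 and 40.2 FPKM (60.4-fold), and Cntd1, which acts in crossover formation, from 2.67 and 2.62 FPKM to 82.2 and 68.2 FPKM (28.5-fold). Spata22 (29.3-fold), Psmc3ip, which assists strand exchange (5.13-fold), and the helicase gene Hfm1 (8.19-fold) rose too. Dmc1, the meiotic recombinase, was lower, from 9.32 and 9.86 FPKM to 1.5 and 1.44 FPKM, and so was Brca1 (28.5-fold lower). Rec114, listed as 2410076I21Rik and needed for break formation, was 46.8-fold lower, and the X-linked crossover gene Tex11 137-fold lower. With quantile normalization 7 members were called lower, and without SSC 1 or SSC 2 the list held 5 higher and 7 or 8 lower, with Hfm1 no longer called (adjusted p = 0.0163 and 0.015).

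Of the 21 genes of the G2 to M step 8 were higher and 8 lower, against 24.7% higher and 56.6% lower over all genes. Fewer of them were called higher without SSC 1 or SSC 2. Hspa2, a heat shock protein of pachytene spermatocytes, was at 8 and 7.39 FPKM in SSCs and at 453 and 590 FPKM in spermatocytes (67.8-fold). The male meiotic cyclin gene Ccna1 went from 0.22 and 0.414 FPKM to 58.6 and 62.2 FPKM, while its somatic relative Ccna2 went from 40.8 and 40.3 FPKM to 1.48 and 1.65 FPKM. Spdya, a cyclin-like activator of CDK2 at meiotic telomeres, was 184-fold higher and Pttg1, which encodes securin, 9.32-fold higher. Ccnb1 (10.9-fold), Cdc25b (339-fold) and Wee1 (5.63-fold) were lower. Plk1 and Espl1, which encode a mitotic kinase and separase, did not pass, with 34.0 and 31.3 FPKM of Plk1 in SSCs against 22.3 and 29.2 FPKM in spermatocytes. Of 20 spindle checkpoint and passenger genes 11 did not pass, 7 fell and 2 rose, and none rose and 1 fell by at least 4-fold. Over all genes 56.6% fell and 24.7% rose, 26.7% and 12.1% by at least 4-fold. Mad2l1 fell 5.6-fold to 7.56 and 6.32 FPKM, whereas Cdc20 (adjusted p = 0.762) stood at 121 and 115 FPKM in SSCs and 96.7 and 132 FPKM in spermatocytes. The spindle checkpoint counts depended on scaling, with 5 higher and 4 lower under quantile normalization and 4 and 3 under median-ratio scaling, and without SSC 1 or SSC 2 none was called higher and 3 lower.

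Of 19 transcription regulators of pachytene and spermatid genes, 14 rose, 13 of them by at least 4-fold (12.1% over all genes), and 5 fell (median log2 fold change 2.74). Members below 1 FPKM in both SSC libraries, such as Mybl1, Rfx4, Kctd19 and Gtf2a1l, passed the filter only through spermatocytes and had to be higher. Mybl1, the MYB family master regulator of pachytene genes, went from 0.6 and 0.312 FPKM to 29.6 and 20 FPKM. Tcfl5, a helix-loop-helix factor of spermatocytes, went from 38.4 and 39.5 FPKM to 148 and 175 FPKM. Rfx2, which drives cilium and flagellum genes, was 49.2-fold higher at 92.0 and 146 FPKM, and Rfx4 was at 0 and 0.0213 FPKM in SSCs and 21.3 and 23.1 FPKM in spermatocytes. Kctd19 and its partner Zfp541, parts of a chromatin complex of pachytene cells, reached 156 and 174 FPKM and 40.5 and 51.9 FPKM, from at most 1.08 FPKM in SSCs. Gtf2a1l, the germ cell TFIIA subunit, was 1413-fold higher, and the testis bromodomain gene Brdt 29.4-fold higher. The genes that fell were Rfx1, Rfx3 and 3 on the sex chromosomes: Taf7l, from 157 and 160 FPKM to 1.47 and 1.19 FPKM, and the Y-linked Zfy1 and Zfy2. Rfx1 did not pass without SSC 1 or SSC 2 (adjusted p = 0.0396 and 0.0332) or with quantile normalization (0.0121), and Zfy1 did not without the 5- or the 7-month library (adjusted p = 0.0127 and 0.0148).

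Promoter sequences are shown for 3 genes that rose and hold the MYB core letters GGCAGTT, and for Ldhc, the most abundant gene. They are the 250 bases before the transcription start in RefSeq on GRCm38.p6, a build other than the mm9 of the files, from a table that matched 1000 of the 1521 genes at least 4-fold higher. Capitals mark the MYB letters, which begin 75 bases before the start in Piwil1, 142 in Tcfl5 and 146 in Pgk2. The Piwil1 stretch is chr5:128735996-128736245 (plus strand), that of Tcfl5 chr2:180642692-180642941 (minus), that of Pgk2 chr17:40208610-40208859 (minus) and that of Ldhc chr7:46861013-46861262 (plus).
Piwil1: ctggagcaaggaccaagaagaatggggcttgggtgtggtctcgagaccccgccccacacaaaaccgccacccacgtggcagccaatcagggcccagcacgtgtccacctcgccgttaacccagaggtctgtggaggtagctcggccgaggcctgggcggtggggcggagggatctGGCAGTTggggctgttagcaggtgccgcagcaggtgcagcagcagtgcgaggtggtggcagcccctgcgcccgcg
Tcfl5: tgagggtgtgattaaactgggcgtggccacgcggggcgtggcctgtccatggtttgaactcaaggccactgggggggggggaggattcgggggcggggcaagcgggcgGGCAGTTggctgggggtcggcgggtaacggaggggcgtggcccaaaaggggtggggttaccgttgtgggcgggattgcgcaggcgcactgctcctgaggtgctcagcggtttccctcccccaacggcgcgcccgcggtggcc
Pgk2: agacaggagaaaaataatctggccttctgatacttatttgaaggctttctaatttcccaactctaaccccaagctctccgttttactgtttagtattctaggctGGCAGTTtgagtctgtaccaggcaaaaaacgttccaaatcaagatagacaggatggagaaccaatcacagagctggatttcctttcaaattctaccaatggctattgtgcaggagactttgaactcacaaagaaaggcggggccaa
Ldhc: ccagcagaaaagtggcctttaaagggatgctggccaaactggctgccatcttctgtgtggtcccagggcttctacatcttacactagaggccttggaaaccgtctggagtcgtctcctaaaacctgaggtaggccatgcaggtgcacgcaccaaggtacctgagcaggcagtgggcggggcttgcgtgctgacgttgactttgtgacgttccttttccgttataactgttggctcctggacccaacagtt
Each window in the table runs from 250 bases before to 50 bases after a start, and the letters were searched on both strands, so that GGCAGTT also counts AACTGCC. Of 1282 windows of genes at least 4-fold higher, 7.49% held the MYB letters, against 4.12% of all 32851 windows, 3.83% of the 11337 windows of genes tested and 2.87% of the 3175 windows of genes at least 4-fold lower. The CRE letters TGACGTCA, read by CREB and CREM, were in 2.81% of the windows of the higher genes, 1.79% of all windows, 3.23% of those of genes tested and 2.61% of those of the lower genes. Both motifs were chosen after the gene results were seen. A match is a description of letters and not a binding site, and Ldhc held neither.

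Of 21 genes of the piRNA pathway and of nuage, the granules in which small RNAs that silence transposons are made, 13 rose, 4 fell and 4 did not pass (median log2 fold change 1.16), against 24.7% higher and 56.6% lower over all genes. Piwil1, the PIWI protein that carries pachytene piRNAs, went from 4.81 and 4.51 FPKM to 358 and 405 FPKM (81.8-fold, adjusted p = 8.62e-06), and Tdrd6, a tudor scaffold of the chromatoid body, from 1.06 and 1.15 FPKM to 95.1 and 98.3 FPKM (87.3-fold). Mael was high in both, at 128 and 124 FPKM in SSCs and 689 and 645 FPKM in spermatocytes. The 3 PIWI genes did not move together. Piwil2 did not pass, with 86.2 and 85.0 FPKM against 81.8 and 73.7 FPKM, and Piwil4, the PIWI protein of fetal and stem cell stages, fell from 8.74 and 10.2 FPKM to 0.0164 FPKM and a listed 0. The piRNA list had, without SSC 1 or SSC 2, 4 higher and 2 lower, and with median-ratio scaling 2 members were called lower.

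Genes of the future sperm rose almost without exception. Of 35 axoneme, radial spoke and transport genes 34 rose, 30 by at least 4-fold, with a median log2 fold change of 4.19 (24.7%, 12.1% and -0.98 over all genes), and their summed level went from 177 and 180 FPKM to 6606 and 5906 FPKM. Spag6, an axoneme central apparatus gene, was 481-fold higher, Ropn1l, a fibrous sheath protein, 112-fold higher at 903 and 888 FPKM, and the axonemal dynein gene Dnah17, listed as Dnahc17, 1265-fold higher. Foxj1, the master regulator of motile cilia in other tissues, was the member that did not pass, at 2.67 and 1.92 FPKM in SSCs and 1.23 and 4.01 FPKM in spermatocytes. Of 32 spermatid genes of chromatin, acrosome and tail 31 rose, 25 by at least 4-fold, and Izumo1 did not pass. Their summed level went from 80.4 and 83.8 FPKM to 1693 and 1802 FPKM. The protamine genes Prm1 and Prm2, translated only in elongating spermatids, were listed at 0 in both SSC libraries and at 186 and 107 FPKM and 105 and 135 FPKM in spermatocytes. The acrosomal genes Acr and Zpbp2 were 574-fold and 317-fold higher, and Tnp2, a transition protein gene, stood at 79.3 and 109 FPKM. Members of either list below 1 FPKM in both SSC libraries, with Dnah17, Prm1 and Prm2 among them, passed the filter only through spermatocytes and had to be higher. Cells were gated as tetraploid, and whether any haploid spermatids remained was not tested. The paper cautions that minor contamination with secondary spermatocytes is possible, and that highly expressed genes such as Prm1 and Prm2 could then be detected.

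Many proteins of energy metabolism and housekeeping have a widely expressed gene and a testis relative, often a retrocopy of an X-linked parent. Of 30 such pairs, 27 could be tested on both sides, and in 17 of them the widely expressed gene fell while the testis gene rose. Over the single genes, 25 of 29 widely expressed members fell and 22 of 28 testis members rose (56.6% and 24.7% over all genes). Testis members below 1 FPKM in both SSC libraries, such as Pgk2, Pgam2 and Gapdhs, passed the filter only through spermatocytes and had to be higher. Likewise, widely expressed members below 1 FPKM in both spermatocyte libraries, such as Gapdh and Pgk1, had to be lower. In glycolysis, Pgam1 went from 73.3 and 72.0 FPKM to 1.95 and 2.19 FPKM while Pgam2 went from 0.0551 and 0.145 FPKM to 406 and 437 FPKM. Gapdh fell 60.5-fold and Gapdhs, listed at 0 in SSCs, reached 17.7 and 24.8 FPKM, and the X-linked Pgk1, at 2.61 and 3.31 FPKM in SSCs, fell while Pgk2 rose from 0.377 and 0.167 FPKM to 49.5 and 37.2 FPKM. Gapdh and Pgk1 have many processed copies that could share their fragments. In the respiratory chain, Cox8a went from 365 and 301 FPKM to 5.41 and 6.37 FPKM and Cox8c from 5.93 and 7.45 FPKM to 1233 and 782 FPKM, and Cox6b1 and Cox6b2 went the same 2 ways (12.6-fold lower and 288-fold higher). The heat shock genes Hspa8 and Hspa2 did so as well, with Hspa8 at 437 and 462 FPKM in SSCs and 9.55 and 11.5 FPKM in spermatocytes.

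Not every pair crossed over. Ldha rose together with Ldhc, from 34.3 and 33.9 FPKM to 474 and 511 FPKM (14.4-fold), and Pabpc1, Tbp and Ppp3ca also rose with Pabpc2, Tbpl1 and Ppp3cc. In 4 pairs both members fell, among them Slc25a5 and Slc25a31, the ADP/ATP carriers. Slc25a5 on chromosome X was 184-fold lower, and Slc25a31 went from 71.8 and 72.0 FPKM to 39.5 and 28.2 FPKM. In 13 pairs the widely expressed member was X-linked, and of these members 12 could be tested and all 12 fell. X-linked members below 1 FPKM in both spermatocyte libraries, Cetn2 among them, passed the filter only through SSCs and had to be lower. Of the 13 testis partners 8 rose, 3 fell and 2 did not pass. Rpl10l, the retrocopy of Rpl10, was one of those that did not pass, at 135 and 119 FPKM in SSCs and 150 and 151 FPKM in spermatocytes, while Rpl10 was at 4.91 and 4.81 FPKM in SSCs and listed at 0 in spermatocytes, and these genes are uncertain because of their many copies. Cetn1, a centrin of the basal body, rose from 1.04 and 0.795 FPKM to 244 and 157 FPKM, beside a 50.0-fold fall of its X-linked parent Cetn2. Without SSC 1 or SSC 2 the calls of Pabpc1, Tbp, Tbpl1, Ppp3ca and Slc25a31 did not hold, with adjusted p between 0.0114 for Ppp3ca and 0.0539 for Pabpc1, and Slc25a31 did not pass with median-ratio scaling either (0.0513).

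**Figure D2:**
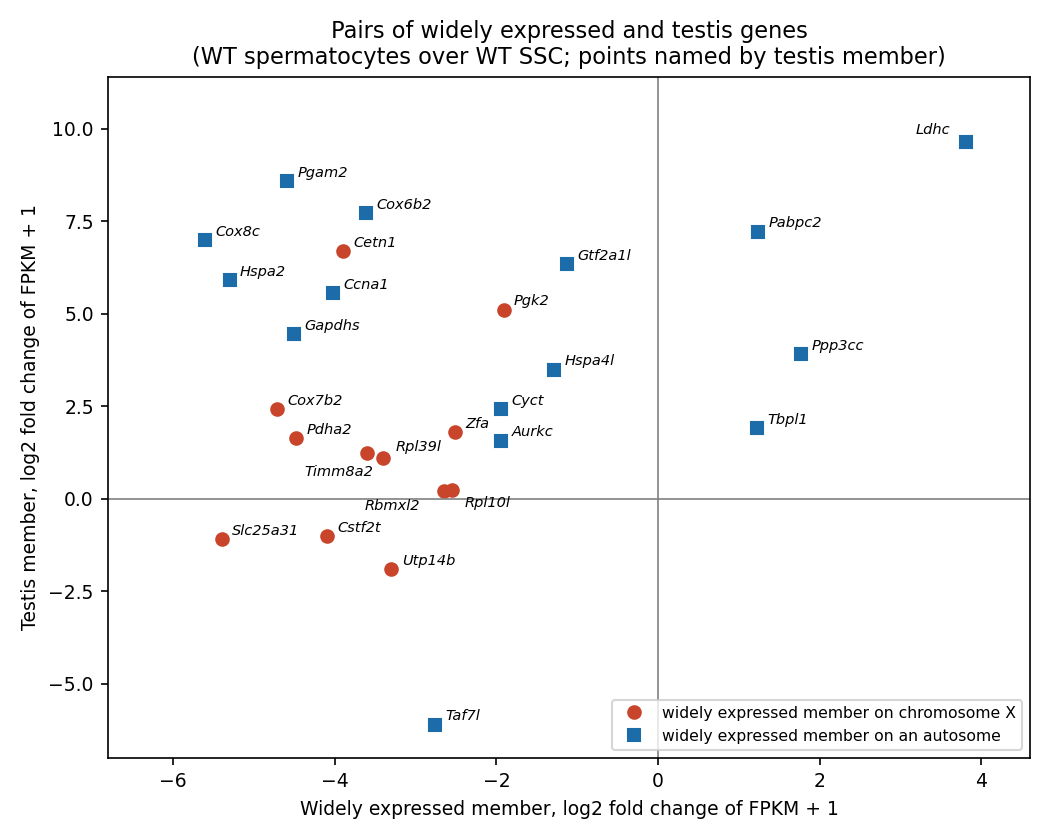
log2 fold change of FPKM + 1, WT spermatocytes over WT SSC, of the 27 pairs tested on both sides. The widely expressed member is horizontal and the testis member vertical, and red circles mark pairs whose widely expressed member is X-linked. The upper left field holds the 17 pairs in which the widely expressed gene fell and the testis gene rose. Rpl10l and Rbmxl2, which did not pass, lie at its lower edge. The upper right holds Ldhc and the other pairs in which both members rose, and Taf7l, a testis gene that is itself on chromosome X, is at the bottom with -6.10.

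Chromosome X stood apart from every autosome. Of 429 X-linked genes tested 412 (96%) fell, 310 of them by at least 4-fold (72.3%, against 26.7% over all genes), and 11 rose, with a median log2 fold change of -2.94. These 429 are part of 946 X-linked genes in the files, and 392 of them were below 1 FPKM in both spermatocyte libraries, as were 2951 of 12131 autosomal genes tested. Such genes passed the filter only through SSCs and so had to be lower in spermatocytes. On the 19 autosomes the share that fell was between 50.9% and 58.7%, the share at least 4-fold lower between 21.4% and 27.9%, and the median between -1.10 and -0.74. X-linked genes together held 2.32% and 2.6% of the summed FPKM in SSCs and 0.065% and 0.0674% in spermatocytes, and their median level went from 7.6 FPKM to 0.0815 FPKM (autosomes from 9.32 FPKM to 4.79 FPKM). Of 261 X-linked genes at 5 FPKM or more in both SSC libraries, 242 (92.7%) were below 1 FPKM in both spermatocyte libraries, against 18.1% of 7733 such autosomal genes. With quantile normalization the X-linked median was -2.28 and the autosomal one -0.23.

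Among the X-linked genes that fell most, Mageb4, a germ cell member of the MAGE family, went from 119 and 114 FPKM to 0.273 and 0.156 FPKM, and Dusp9, a phosphatase of MAP kinases, from 95.3 and 85.9 FPKM to 0.0639 and 0.0512 FPKM. Huwe1, a large ubiquitin ligase, was 175-fold lower, the RNA helicase gene Ddx3x 246-fold, Uba1, the ubiquitin-activating enzyme, 101-fold, and Tsc22d3 287-fold. Xlr5c, which has near-identical relatives on the chromosome, was at 101 and 93.6 FPKM in SSCs and at a listed 0 and 0.07 FPKM in spermatocytes. Only 2 X-linked genes stood at 5 FPKM or more in both spermatocyte libraries. One was Akap4, the main protein of the sperm fibrous sheath, at 0.125 and 0.0743 FPKM in SSCs and 7.83 and 9.54 FPKM in spermatocytes (log2 fold change 3.13, SE 0.12). The other, named after its values were seen, was Ndufa1, a subunit of respiratory complex I, at 32.2 and 26.7 FPKM in SSCs and 19.4 and 11.7 FPKM in spermatocytes, which did not pass (adjusted p = 0.0236). Tsga8, a spermatid gene, rose to 4.28 and 9.76 FPKM. Without SSC 1 or SSC 2 the number of X-linked genes called higher was 4, and Tsga8 did not pass (adjusted p = 0.0385 and 0.0498). All 7 Y-linked genes tested fell, with a median log2 fold change of -2.22 (56.6% and -0.98 over all genes). Eif2s3y went from 22.8 and 23.9 FPKM to 1.69 and 1.32 FPKM. Of the 8 measured genes of the Y-linked list, 7 were below 1 FPKM in both spermatocyte libraries. Those of them that were tested passed the filter only through SSCs.

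**Figure D3:**
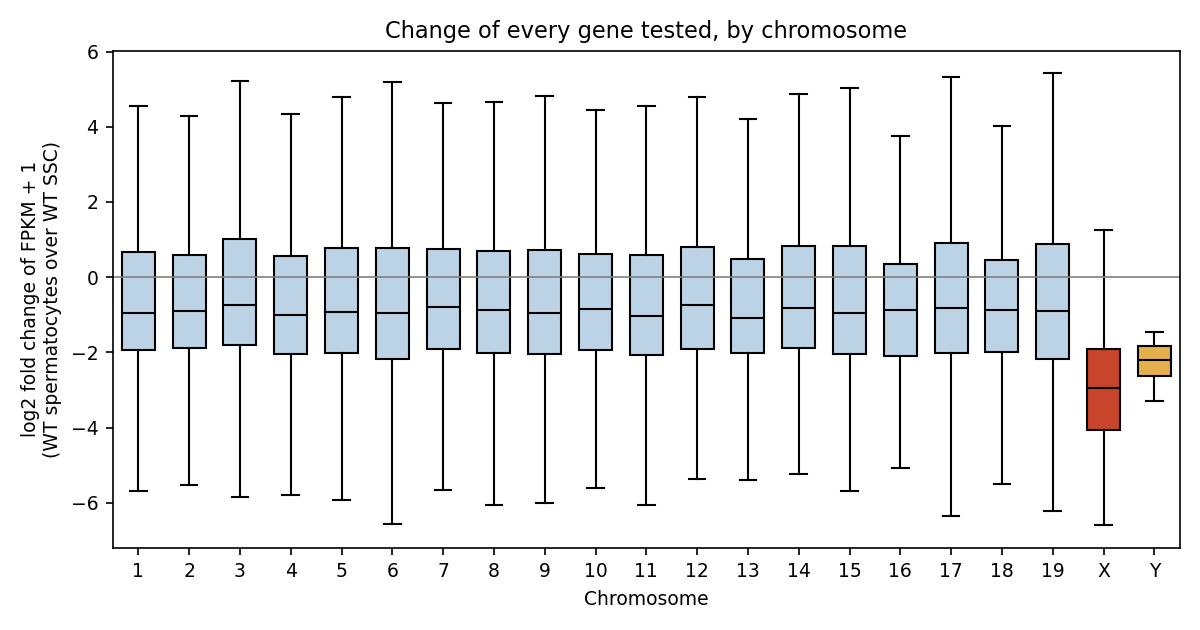
log2 fold change of FPKM + 1, WT spermatocytes over WT SSC, of all genes tested on each chromosome. Boxes span the quartiles with the median as a line, whiskers reach to the last gene within 1.5 times the box, and genes beyond are not drawn. The X median lies at -2.94 and the Y median at -2.22, below all 19 autosomes.

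Of 36 DNA replication genes 29 fell, 21 of them by at least 4-fold, and none was called higher (median log2 fold change -2.17). Over all genes 56.6% fell, 26.7% by at least 4-fold, with a median of -0.98. Of these 36, 10 were below 1 FPKM in both spermatocyte libraries, with Mcm2, Mcm4, Cdt1 and Fen1 among them. Such genes passed the filter only through SSCs and had to be lower. Mcm2 of the replicative helicase went from 156 and 154 FPKM to 0.45 and 0.214 FPKM and Mcm4 was 72.9-fold lower. The licensing factor gene Cdt1 was 124-fold and the flap endonuclease gene Fen1 109-fold lower. Rfc2, a clamp loader subunit, was at 72.4 and 71.7 FPKM in SSCs and 94.5 and 106 FPKM in spermatocytes and did not pass (adjusted p = 0.0139). Other scalings called up to 4 members higher (median-ratio scaling). All 5 DNA methylation genes tested fell, from 2.33 for the log2 fold of Uhrf1 to 4.34 for that of the de novo methyltransferase gene Dnmt3a. Of the 8 genes on that list, 5 were below 1 FPKM in both spermatocyte libraries. Those of them that were tested passed the filter only through SSCs and had to be lower. Dnmt1, the maintenance enzyme, was at 170 and 169 FPKM in SSCs and 22.0 and 25.9 FPKM in spermatocytes.

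Of 16 genes of the MYM zinc finger family and of the LSD1 complex, to which ZMYM proteins bind, 9 fell and 3 rose (median log2 fold change -1.004). Both the share that fell and the median were near those of all genes (56.6% and -0.98), so the list as a whole did not stand apart from them. Kdm1a, which encodes LSD1, was at 53.1 and 51.6 FPKM in SSCs and 47.2 and 54.3 FPKM in spermatocytes and did not pass (adjusted p = 0.722). Its corepressors of the CoREST family exchanged places: Rcor2 went from 41.8 and 40.7 FPKM to 0.179 and 0.379 FPKM (148-fold lower), while Rcor3 went from 0.699 and 0.572 FPKM to 34.0 and 34.4 FPKM (53.8-fold higher) and Rcor1 from 1.53 and 1.61 FPKM to 8.69 and 8.14 FPKM (5.34-fold higher). Zmym2, the closest relative of Zmym3 in this list, did not pass, with 16.4 and 15.8 FPKM against 19.7 and 11.8 FPKM, and Zmym1 was 5.45-fold lower. With quantile normalization 5 members were called higher, and without SSC 1 or SSC 2 the list had 5 called lower, with Zmym1 not passing (adjusted p = 0.0114 and 0.0113).

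Of 14 histone genes 4 rose, 3 fell and 7 did not pass, with a median log2 fold change of 0.68. Over all genes 24.7% rose and 56.6% fell. The linker H1f0 (16.2-fold) and the macroH2A gene H2afy2 (95.9-fold) fell. The spermatid linker genes H1fnt and Hils1, at or near 0 in SSCs, rose to between 5.68 and 11.3 FPKM. H1fnt and Hils1 passed the filter only through spermatocytes and had to be higher. H3f3b, one of the genes for the replacement histone H3.3, rose from 110 and 116 FPKM to 224 and 201 FPKM. Without SSC 1 or SSC 2 the histone list had 2 members called higher and H3f3b did not pass (adjusted p = 0.0527 and 0.0432, and 0.012 with quantile normalization), and without the 5- or the 7-month library it had 7. Of 19 immediate-early and growth factor response genes 18 fell, 14 by at least 4-fold (median log2 fold change -3.62). Over all genes 56.6% fell, 26.7% by at least 4-fold, with a median of -0.98. Dusp6 (1012-fold) and Egr1 (108-fold) were lower, and Etv4 went from 49.2 and 47.7 FPKM to 0.0376 FPKM and a listed 0. Of the 22 genes on that list, 16 were below 1 FPKM in both spermatocyte libraries. Those of them that were tested passed the filter only through SSCs and had to be lower. Jun did not pass, at 5.25 and 4.73 FPKM against 2.29 and 4.32 FPKM. Ribosomal protein genes, most of which have processed copies and are uncertain, had 55 of 76 down and a median of -1.71, against 56.6% and -0.98 over all genes, and their summed level was 13102 and 12288 FPKM in SSCs and 4901 and 3732 FPKM in spermatocytes. Rps2, among the most abundant, went from 487 and 480 FPKM to 12 and 17.3 FPKM. Ribosomal genes called lower numbered 22 without SSC 1 and 23 without SSC 2.

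**Figure D4:**
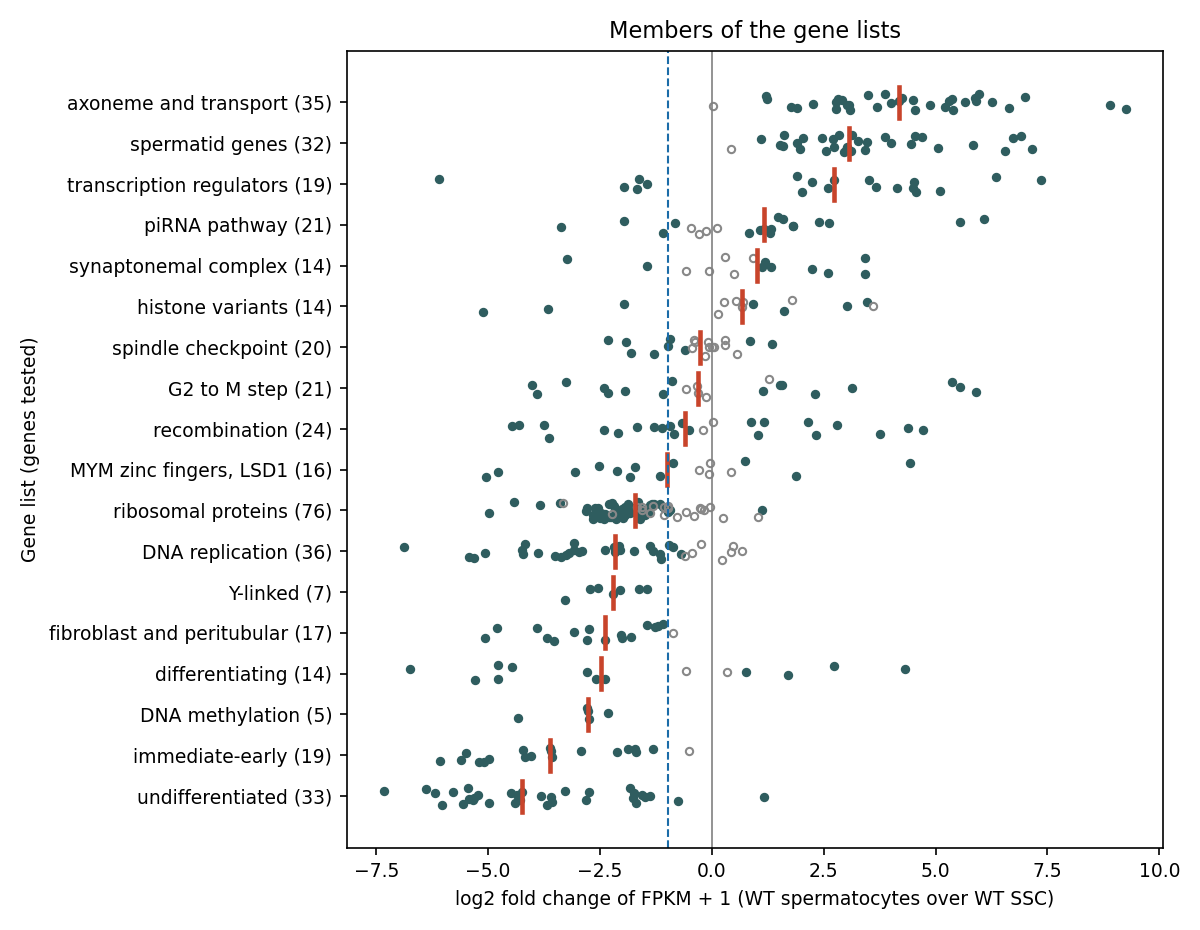
log2 fold change of FPKM + 1, WT spermatocytes over WT SSC, of each tested member of 18 gene lists, with the number tested in brackets. Filled points passed an adjusted p of 0.01, open points did not, red bars are list medians and the dashed line is the median over all genes at -0.98. Axoneme and spermatid genes lie to the right of 0 and genes of undifferentiated spermatogonia to the left with the exception of Id4.

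Markers of other testis cells were low in the spermatocyte libraries. Of 19 Sertoli cell genes 11 were tested, with 5 higher and 5 lower (24.7% and 56.6% over all genes). The summed level of the list was 156 and 147 FPKM in SSCs and 39.3 and 46.8 FPKM in spermatocytes. Most of the SSC sum came from 1 gene, Ctsl, at 94.2 and 85.2 FPKM in SSCs and 7.83 and 8.85 FPKM in spermatocytes. The fall of the sum is therefore mainly that of Ctsl. The defining genes Sox9, Wt1, Gata4, Amh and Fshr were below 1 FPKM in both spermatocyte libraries, while Clu, also expressed by other cells, rose from 1.58 and 1.4 FPKM to 12.9 and 20 FPKM and Cst12 from 0.367 and 0.21 FPKM to 7.03 and 6.49 FPKM. Aard, Inha and Cldn11 rose to between 1.13 and 3 FPKM. Of the Leydig cell genes Insl3 alone was called, at 2.42 and 4.38 FPKM from a listed 0, and Star did not pass (adjusted p = 0.032). Star was called higher with quantile normalization (0.000513), median-ratio scaling (0.0047), the fit of all 12 libraries (0.00948) and without the 7-month library (0.00632). Without SSC 1 or SSC 2 neither Insl3 (adjusted p = 0.0182 and 0.0183) nor Clu and Inha passed, and Sox9 did not without the 5- or the 7-month library. Of 17 fibroblast and peritubular genes tested, 16 were lower in spermatocytes (56.6% over all genes). The summed level of that list was 213 and 201 FPKM in SSCs against 12.5 and 13.8 FPKM in spermatocytes. Of the 20 genes on that list, 15 were below 1 FPKM in both spermatocyte libraries, and those of them tested passed the filter only through SSCs. Fn1 and Col1a1 stood at 50.3 and 50.7 FPKM and at 37.2 and 36.8 FPKM in SSCs, and the part of such cells in the SSC values was not tested. The 15 genes of macrophages, blood and endothelium summed to 8.71 and 8.48 FPKM in SSCs and 0.738 and 0.953 FPKM in spermatocytes, with Ptprc, the pan-leukocyte gene, at 0.116 FPKM or less in all 4 libraries.

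The spermatocyte libraries of 5 and 7 months differed more from each other than the SSC libraries did. Over 4045 genes at 10 FPKM or more in both, the median absolute log2 ratio of 7 to 5 months was 0.25, and 62 genes differed by more than 2-fold, 49 of them lower at 7 months. Over 5908 such genes the median between SSC 1 and SSC 2 was 0.07, with 0 genes beyond 2-fold. With 1 library per age these are values without a test. Lars2, a mitochondrial leucyl-tRNA synthetase, stood out with 10.7 FPKM at 5 months and 190 FPKM at 7 months, and Atp5k, a subunit of ATP synthase, with 1119 FPKM and 295 FPKM. Rps26 (107 and 14.5 FPKM), Snrpe (60.2 and 18.6 FPKM) and Dynlt1a (69.8 and 22.0 FPKM) were lower at 7 months as well, and Qsox1, Prr7, C2cd4b and Hmx1 were higher at 7 months by log2 ratios of 1.19 to 1.25. The KO spermatocyte libraries of the same ages had the same order for these genes, with Lars2 at 12 and 241 FPKM and Atp5k at 1087 and 288 FPKM. The exception was Sfi1, at 62.4 and 13.5 FPKM in WT and 44.7 and 62.0 FPKM in KO. Age and preparation of the libraries cannot be told apart.

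The same cell comparison was made in KO libraries, which share no library with the WT one. There 2847 of 12417 genes were higher (22.9%) and 6930 lower (55.8%). At least 4-fold, 11.1% were higher and 26.4% lower. Of 1504 genes at least 4-fold higher in WT and tested in both, 1325 were also called at least 4-fold higher in KO, which is 88.1% of the WT genes and 96.3% of the 1376 KO genes. Of 3346 genes at least 4-fold lower in WT 3078 were so in KO (92% of these and 93.8% of the 3282 KO genes), and no gene of either WT set was called in the opposite direction. Chromosome X had 406 of 424 genes lower in KO, with a median log2 fold change of -2.89. A test of the difference between the genotypes' cell comparisons (limma) called 3 of 12748 genes (0.0235%), with 1455 at an unadjusted p under 0.05. This fit took the 5- and 7-month libraries as plain replicates, although WT and KO share these ages. With the age of the spermatocyte libraries as a block it called 167 genes (1.31%), the same 3 included, and with the SSC replicate number as a further block it called 1 (0.00784%), none of the 3. The number of genes whose cell difference depends on genotype was thus not settled by these libraries. Zmym3 itself was at 9.19 and 9.76 FPKM in KO SSCs, and the difference between the genotypes' fold changes, 1.71 on the log2 scale, did not pass (adjusted p = 0.0165). It passed with the block by age (adjusted p = 0.00346) and not with both blocks (0.0277).

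The WT c-KIT+ cells were induced from the cultured SSCs with retinoic acid, and their levels are given beside both cell types without a test. The 1521 genes at least 4-fold higher in spermatocytes held 2.86% and 2.85% of the summed FPKM of the WT c-KIT+ libraries, and X-linked genes held 2.88% and 2.94%, both close to the SSC values. Piwil1 was at 4.54 and 5.31 FPKM, Ldhc at 3.83 and 4.57 FPKM and Zmym3 at 39.9 and 39.7 FPKM there, levels of SSCs rather than of spermatocytes. Sycp3, at 103 and 91.4 FPKM, lay between its values in SSCs and in spermatocytes, and so did Ret, at 29.5 and 30.5 FPKM. Rec8, a meiotic cohesin gene, was higher in c-KIT+ cells (41.8 and 36.8 FPKM) than in SSCs (4.57 and 3.72 FPKM) or spermatocytes (1.72 and 3.38 FPKM).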

How the data were processed

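The authors deposited 1 table per library of FPKM values for mm9 genes, made from RNA-seq reads with TopHat2 2.0.6 and Cufflinks 2.0.2 per the labels, and compared groups with Cuffdiff; the gene annotation is not given in the sources used here. FPKM divides by length and library total, so a few very abundant genes lower all others. Of 23021 entries, 728 under 259 repeated symbols were left out. Genes that reached 1 FPKM in 2 or more of the WT libraries compared went into limma 3.58.1 (R 4.3.3, variance trend) on log2(FPKM + 1), with Benjamini-Hochberg adjustment over all genes tested and a threshold of 0.01; fold changes on this scale understate the change of low genes, and folds in the text are ratios of mean FPKM. With 2 libraries a group, simulated data of the WT comparison (12567 genes) gave calls for 81% of 2-fold and 13% of 1.5-fold changes. In that simulation few genes were changed, all of them well expressed, and both groups had the same spread. In the data 81.3% of genes were called, so these rates do not carry over to the comparison. Named genes were the markers, all pair members, the 10 largest changes each way, up to 6 called members each way and up to 2 abundant uncalled members per list, the 8 largest X-linked changes each way and the 5 largest age ratios each way; a few further list members, such as Rec8, were named after their values were seen, and some results are not reported here. The members and lists were chosen with earlier results of these data known, and the motif letters after the gene results were seen. Tables used Python 3.11.15, pandas 2.3.3 and numpy 2.4.6, figures matplotlib 3.10.9. Alternatives were other pseudocounts, filters, scalings and fits, and leaving out each library.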

Additional observations from a re-analysis of the deposited data

Results flagged for a closer look

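The cell difference (spermatocytes against SSCs) differed between KO and WT for 3 of 12748 genes in a limma interaction test with Benjamini-Hochberg adjustment. For Fam5b the KO change minus the WT change was -1.63 (SE 0.08, adjusted p = 0.00405), with WT SSCs at 0.31 and 0.226 FPKM, KO SSCs at 2.95 and 2.88 FPKM and a listed 0 in all 4 spermatocyte libraries. For H2-Q7, a class I gene with near-identical relatives, it was 3.12 (SE 0.18, adjusted p = 0.00627), with WT SSCs at 8.67 and 6.49 FPKM, KO SSCs at 0.0417 and 0.0425 FPKM, WT spermatocytes at 0.0911 and 0.189 FPKM and KO spermatocytes at 0.282 and 0.147 FPKM. For both genes the genotypes were far apart in the SSC libraries, and neither passed with both age and SSC number as blocks (adjusted p = 0.0244 for each). Of the libraries in this test, Fam5b reached 1 FPKM only in KO SSCs and H2-Q7 only in WT SSCs. Each gene thus entered the test only through the group where it was high.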

How the results depend on the processing

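Leaving out each library gave 1628 to 3164 genes called higher, 4795 to 7105 lower, and 4 to 12 X-linked genes higher. A 4-fold minimum left 1521 higher and 3350 lower, and quantile normalization 2100 at least 4-fold lower. A filter at 5 FPKM, which tests fewer genes, left 260 X-linked genes lower and 1 higher, with medians of -3.85 (X) and -0.87 (autosomes). The X median was -2.28 with quantile normalization and -2.67 with median-ratio scaling, and the autosomal median -0.23 and -0.43, and -0.86 with equal total FPKM. Of 336 list counts, 154 moved by less than 1.5 times with other scalings and 14 by more, and 128 and 40 without a library, an alternative added after the data were seen. Of 169 named genes, Qsox1, not called, was 0.56 without the 5-month and -0.63 without the 7-month library. The cause was not tested. For the WT comparison no pairing of SSC with spermatocyte libraries was possible, because the labels number only the SSC libraries. For the difference between genotypes, blocks added after the data were seen gave 167 calls (age) and 1 (age and SSC number) in place of 3. With 2 libraries a group and 1 per age, the test rests on 2 residual degrees of freedom. Depth limits genes near 1 FPKM.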
